A study of Homo sapiens with 6 samples.

Results

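The cholesterol genes described here are HMGCS1, IDI1, FDFT1, SQLE, LSS and DHCR7, which are enzymes of cholesterol synthesis, and INSIG1 and SREBF2, which control them. They were chosen by symbol and are 8 of the 58302 genes in the deposited RIP-seq table, and all 8 were found once each. SW480 and DLD-1 are epithelial cell lines from human colorectal tumours. Both were wild-type only in the sense of unmodified lines, and the paper describes both as p53 mutant. They received no treatment and were kept in DMEM with 10% fetal bovine serum, a source of lipoprotein cholesterol. In each line there was 1 library of total RNA (Input), 1 library of the RNA that an antibody to the RNA acetyltransferase NAT10 pulled down (RIP) and 1 library immunoprecipitated for N4-acetylcytidine (acRIP), the modified base ac4C. The 6 groups therefore held 1 library each, with no replicate. Every difference below compares libraries, no p-value is given across libraries, and each printed error covers the counting of reads only.

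Cells make cholesterol from acetyl-CoA by the mevalonate pathway. When sterols in the endoplasmic reticulum are low, SCAP carries the SREBP transcription factors to the Golgi, where they are cleaved and released to switch on the enzymes of synthesis and the receptors of uptake. When sterols are high, INSIG proteins hold SCAP back, and INSIG1 is itself a target of SREBP. Transcripts of this pathway are therefore known to rise and fall together with the sterol supply of a culture.

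The promoter sequences are shown first because the sterol control of these genes is read there. RefSeq promoters (build GRCh38.p14, 250 bases before to 50 bases after a start site) were used for 6 of the 8 genes, with 10 start sites in all. No promoter of SQLE or FDFT1 was used, so whether these genes carry the motifs below was not tested. The sterol regulatory element TCACNCCAC, searched on both strands, was found in 1.13% of 35116 promoters, and among the 6 genes used in SREBF2 alone. Of 26 other genes of the cholesterol pathway with a promoter, 0 had it. The CCAAT box, which binds the SREBP partner NF-Y, was searched as CCAAT on both strands. It was found in 34.6% of all promoters and in 7 of the 10 starts. Counted at any start, each of the 6 genes and 14 of the 26 other pathway genes had at least 1. The GC box GGGCGG, bound by SP1, was found in 45.0% of all promoters and in 9 of the 10 starts. Counted at any start, each of the 6 genes and 23 of the 26 others had it. Some windows of the same gene overlap, so the 10 starts are not independent. The stretches below run 5′ to 3′ on the strand of the gene, and capitals mark the sterol regulatory element in the first and a CCAAT box, here read as ATTGG from the opposite strand, in the others. The motifs printed do not overlap one another. SREBF2 carries the element at chr22:41832962-41832991 (plus strand) and a box at chr22:41832987-41833016 (plus strand), the INSIG1 box lies at chr7:155297696-155297725 (plus strand), the HMGCS1 box at chr5:43313495-43313524 (minus strand), the LSS box at chr21:46228907-46228936 (minus strand) and the DHCR7 box at chr11:71448424-71448453 (minus strand).
SREBF2 element: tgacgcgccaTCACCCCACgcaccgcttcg
SREBF2 box: cttcgctcgcccATTGGctgagatgagcct
INSIG1 box: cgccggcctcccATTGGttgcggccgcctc
HMGCS1 box: ctaccggccgcgATTGGctgtgggagccac
LSS box: cgcggcgctctgATTGGttgcgtgggcgtc
DHCR7 box: ggtccgcctccgATTGGcaggcaatcgctg
A match describes letters in the window and is no evidence of binding in these cells. The lack of a match to this exact pattern in this window does not show that a gene has no sterol element.

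Before the results, the labels need a caution. The RIP library labelled SW480 resembled the Input labelled DLD-1 more than the Input labelled SW480 (Pearson r = 0.944 against 0.871 across 16196 protein-coding genes), and the RIP library labelled DLD-1 resembled the Input labelled SW480 more than its own (0.951 against 0.856). The same was seen with the Inputs deposited beside the acRIP data, at 0.934 against 0.859 and 0.942 against 0.850. KRT20, a keratin of intestinal epithelium, was at 29.2 FPKM (fragments per kilobase of RNA at equal library size) in the Input labelled SW480 and 23.9 in the RIP library labelled DLD-1, but at 0.0426 in the Input labelled DLD-1 and listed at 0 in the RIP library labelled SW480. VIM, an intermediate filament of mesenchymal cells, stood at 128 in RIP labelled SW480 and 11.1 in the Input labelled DLD-1, against 0.0770 in the Input labelled SW480 and 0.804 in the RIP library labelled DLD-1. The labels are used as given, the ratios over Input are given with the Input of either label, and whether the libraries were exchanged was not tested. Of 9 markers listed for epithelial and colorectal lines, VIM among them, 7 or 8 reached 1 FPKM in every column. VIM is counted there in the columns where it stood at 128 and 11.1 FPKM. It is also counted in the Input labelled DLD-1 deposited beside the acRIP data, where it stood at 51.2 FPKM. The count is therefore not of epithelial genes alone. The 12 markers of leukocytes, fibroblasts, endothelium, hepatocytes and adipocytes summed to between 0.939 and 3.72 FPKM. The whole reads that could be solved from the FPKM values summed to 12625029 in the shallowest and 28099710 in the deepest of the RIP and Input libraries.

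All 8 genes were well expressed. HMGCS1, the enzyme that joins acetyl-CoA and acetoacetyl-CoA ahead of mevalonate (ENSG00000112972, chr5:43287470-43313412 by RefSeq on GRCh38.p14), was at 30.8 and 33.3 FPKM in RIP under the SW480 and DLD-1 labels. It was at 19.3 and 18.5 FPKM in the Inputs in the same order, and at 17.9 and 17.8 FPKM in the Inputs of the acRIP table. Its level was thus alike under both labels within each kind of library, and both RIP values lay above all 4 Input values.

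IDI1, which interconverts the 5-carbon building blocks of isoprenoids (ENSG00000067064, chr10:1039152-1056704), was at 55.0 FPKM in RIP labelled SW480 and at 30.2 FPKM in RIP labelled DLD-1. Its Inputs were at 17.2 FPKM (SW480) and 30.2 FPKM (DLD-1), and the acRIP-table Inputs at 13.5 and 21.3 FPKM. The label with the higher Input was the one with the lower RIP value.

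FDFT1, squalene synthase and the first enzyme committed to sterols (ENSG00000079459, chr8:11795582-11839298), had the highest level of the 8 genes in each of the 6 columns, at 92.9 and 128 FPKM in the RIP libraries, 123 and 114 FPKM in the Inputs, and 64.4 and 53.9 FPKM in the acRIP-table Inputs, with SW480 labels first. RIP and Input values overlapped.

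SQLE, squalene epoxidase, a rate-limiting step late in the pathway (ENSG00000104549, chr8:124998505-125022283), was at 66.4 and 36.6 FPKM in RIP under the SW480 and DLD-1 labels. The Inputs stood the other way round, at 29.9 and 68.7 FPKM, and the acRIP-table Inputs at 17.0 and 42.6 FPKM. LSS, which closes the sterol rings as lanosterol synthase (ENSG00000160285, chr21:46188446-46228774), was at 22.0 and 8.46 FPKM in RIP, 17.7 and 33.0 FPKM in Input and 10.3 and 16.1 FPKM in the acRIP-table Inputs. The RIP value of LSS labelled DLD-1 was the lowest of any of the 8 genes in any column. DHCR7, the reductase of the last step to cholesterol (ENSG00000172893, chr11:71427287-71449043), was at 80.4 and 33.3 FPKM in RIP, 18.9 and 51.9 FPKM in Input and 10.7 and 23.2 FPKM in the acRIP-table Inputs.

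INSIG1, the sterol-dependent anchor of SCAP (ENSG00000186480, chr7:155297878-155310235), was at 59.7 and 24.2 FPKM in RIP under the SW480 and DLD-1 labels, 23.9 and 64.5 FPKM in the Inputs, and 17.8 and 42.9 FPKM in the acRIP-table Inputs. SREBF2, which encodes the SREBP that drives cholesterol synthesis (ENSG00000198911, chr22:41833105-41907305), was at 39.9 and 42.1 FPKM in RIP, 72.1 and 66.3 FPKM in Input, and 39.9 and 38.8 FPKM in the acRIP-table Inputs. SREBF2 thus varied little with the label, unlike its known target INSIG1. The plot of levels shows both kinds of gene.

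**Figure D1:**
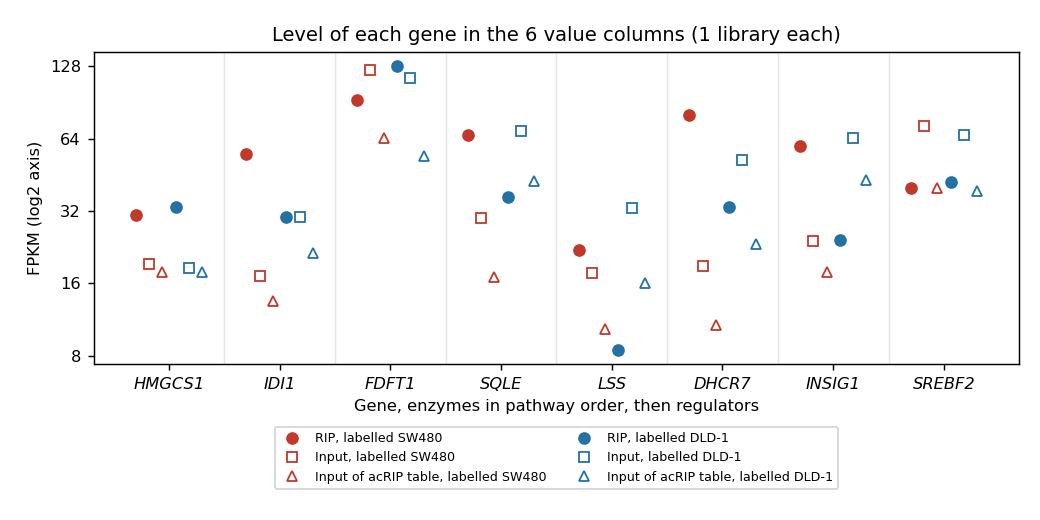
FPKM (log2 axis) of each gene in the 6 columns, 1 point per column, with colour for the label and shape for the kind of column. The sample titles name 1 Input per line, so both Input columns of a label are taken to come from the same sample. For SQLE, IDI1, LSS, DHCR7 and INSIG1 both Input symbols are higher under the DLD-1 label while the RIP symbol is higher under the SW480 label, and HMGCS1 and SREBF2 hardly differ between labels.

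The comparison of Inputs asks how the lines differ in these transcripts. SQLE, INSIG1 and DHCR7 were at least 2-fold higher in the Input labelled DLD-1, by 2.29-, 2.70- and 2.75-fold, and IDI1 and LSS were higher by 1.75- and 1.86-fold. HMGCS1, FDFT1 and SREBF2 differed little, with DLD-1 to SW480 ratios of 0.957, 0.925 and 0.920. On the scale of log2(FPKM + 1), SW480 minus DLD-1, the values were -1.17 (counting SE 0.05) for SQLE, -1.40 (0.07) for INSIG1, -1.41 (0.06) for DHCR7, -0.77 (0.10) for IDI1 and -0.86 (0.05) for LSS, against 0.06 (0.06) for HMGCS1, 0.11 (0.03) for FDFT1 and 0.12 (0.03) for SREBF2. Of the 8 genes, 3 were at least 2-fold lower under the SW480 label, where 9.29% of the 12324 genes that reached 1 FPKM in both Inputs were, and 0 were 2-fold higher, where 7.25% were. The median over the 8 genes was -0.82, and over all 12324 genes -0.03.

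The Inputs of the acRIP table are a separate pair of columns. The sample titles name 1 Input per line, so both pairs are taken here to come from the same Input samples. Whether they were the same libraries was not tested, and they are not counted as a replicate of the comparison above. There the same 3 genes passed 2-fold, with DLD-1 to SW480 ratios of 2.50 for SQLE, 2.41 for INSIG1 and 2.17 for DHCR7. Over all genes 9.60% were as much lower and 9.52% as much higher under the SW480 label. IDI1 and LSS were higher under the DLD-1 label by 1.58- and 1.56-fold, and HMGCS1, FDFT1 and SREBF2 had ratios of 0.996, 0.837 and 0.972. The depth of these columns is unknown and no counting error is given for them.

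Between the RIP libraries the direction was the opposite. INSIG1, LSS and DHCR7 were higher in the library labelled SW480 by 2.47-, 2.61- and 2.42-fold, and SQLE and IDI1 by 1.81- and 1.82-fold, while HMGCS1, FDFT1 and SREBF2 had ratios of 0.926, 0.724 and 0.948. On the log2 scale the first 5 genes lay between 0.84 and 1.28 with counting SEs of 0.03 to 0.06. Of the 8 genes, 3 were at least 2-fold higher in RIP labelled SW480, where 7.60% of all genes were, and 0 were 2-fold lower, where 6.17% were. SQLE, IDI1, LSS, DHCR7 and INSIG1 were thus the genes past 1.5-fold in each of the 3 pairs of columns, with the sign turned in RIP. The Input pairs among these are taken to share their samples, since the titles name 1 Input per line.

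**Figure D2:**
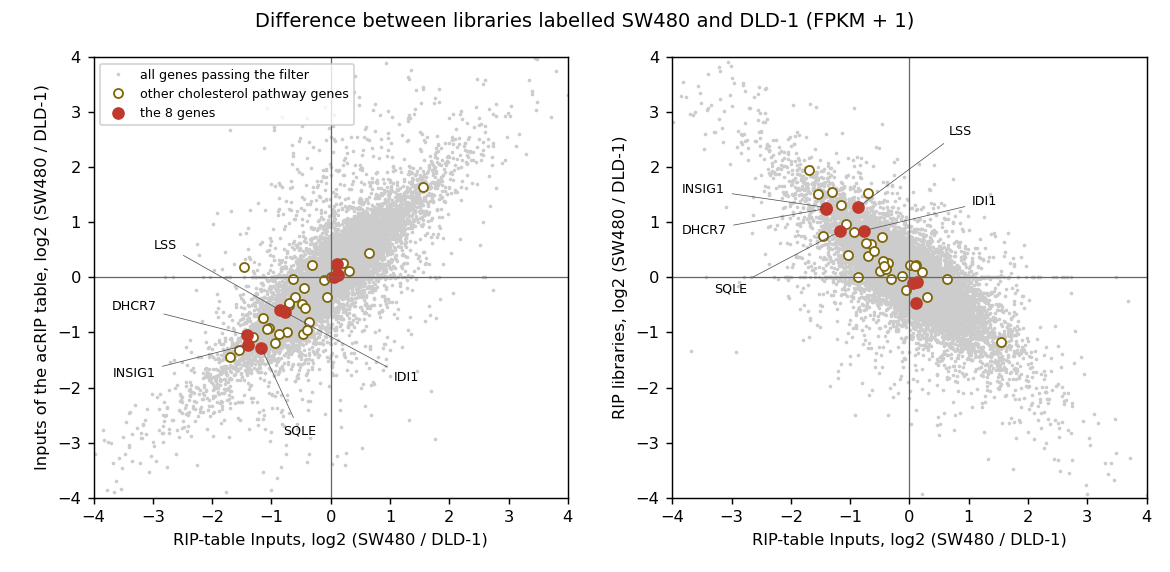
Each point is a gene, with the log2 difference between the RIP-table Inputs (SW480 minus DLD-1, FPKM + 1) on the x axis and that between the acRIP-table Inputs (left) or the RIP libraries (right) on the y axis. Genes beyond the axis ends are not drawn. SQLE, IDI1, LSS, DHCR7 and INSIG1 lie below 0 in both Input comparisons and above 0 in the RIP comparison, within a cloud of all genes that tilts the same way.

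RIP over Input asks which transcripts were recovered with NAT10. With the labels as given, 4 of the 8 genes were at least 2-fold above Input in SW480, where 15.6% of all genes were, and 0 were 2-fold below, where 16.0% were. These were DHCR7 with a log2 ratio of 2.03 (counting SE 0.05), IDI1 with 1.62 (0.09), INSIG1 with 1.29 (0.07) and SQLE with 1.12 (0.04). HMGCS1 was at 0.65 (0.05) and LSS at 0.30 (0.05). FDFT1 at -0.40 (0.03) and SREBF2 at -0.84 (0.03) lay below Input. In DLD-1 the picture differed, since 0 genes were 2-fold above Input, where 15.1% of all genes were, and 2 were 2-fold below, where 19.2% were. These were LSS at -1.85 (0.05) and INSIG1 at -1.38 (0.06). SQLE was at -0.89 (0.04), SREBF2 at -0.64 (0.03) and DHCR7 at -0.63 (0.04). IDI1 was at 0.00 (0.08), FDFT1 at 0.17 (0.03) and HMGCS1 at 0.82 (0.05). The medians over the 8 genes were 0.89 and -0.64, and over all genes 0.05 and -0.05.

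HMGCS1 was the gene that lay above Input by more than its counting error under both labels, and SREBF2 the one that lay below under both. The 8 genes held 0 that were 2-fold above in both labels, where 3.55% of all genes were, and 0 that were 2-fold below in both, where 7.29% were. SQLE, FDFT1, INSIG1, LSS and DHCR7 had opposite signs under the labels, as had IDI1 only by a value that rounds to 0.00. Opposite signs were found in 43.6% of all genes. The ratios under the labels differed at least 2-fold in 5 of the 8 genes, against 38.6% of all genes.

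With the Input of the other label no gene of the 8 passed 2-fold, although some ratios lay farther from 0 than before. RIP labelled SW480 over Input labelled DLD-1 held 0 of the 8 genes at 2-fold in either direction, where 9.24% of all genes were above and 11.7% below. RIP labelled DLD-1 over Input labelled SW480 also held 0, where 9.36% were above and 11.8% below. The medians were -0.08 and 0.17. IDI1 was at 0.84 and 0.77, HMGCS1 at 0.71 and 0.76 and DHCR7 at 0.62 and 0.79, all above Input. SREBF2 was at -0.72 and -0.76 and LSS at -0.56 and -0.98, both below Input. SQLE at -0.05 and 0.28, INSIG1 at -0.11 and 0.02 and FDFT1 at -0.29 and 0.06 had opposite signs, as did 18.3% of all genes. The shares of all genes 2-fold above or below in both of these pairings were 5.59% and 8.41%. Both ways of pairing share the same 4 libraries and are no independent evidence of each other. HMGCS1 and SREBF2 had one direction in both RIP libraries with either Input. The same-label Inputs from the acRIP table were first scaled to the median of the RIP-table Input of their label. Over them the signs were the same, at 0.24 and 0.29 for HMGCS1 and -0.53 and -0.48 for SREBF2. For SREBF2 this sign rests on the scaling. Its unscaled FPKM was 39.9 in RIP and 39.9 in that Input under the SW480 label, and 42.1 and 38.8 under the DLD-1 label. After scaling, the medians over all genes were 0.14 and 0.03 and no counting error is given, so HMGCS1 in SW480 lay little above the median.

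**Figure D3:**
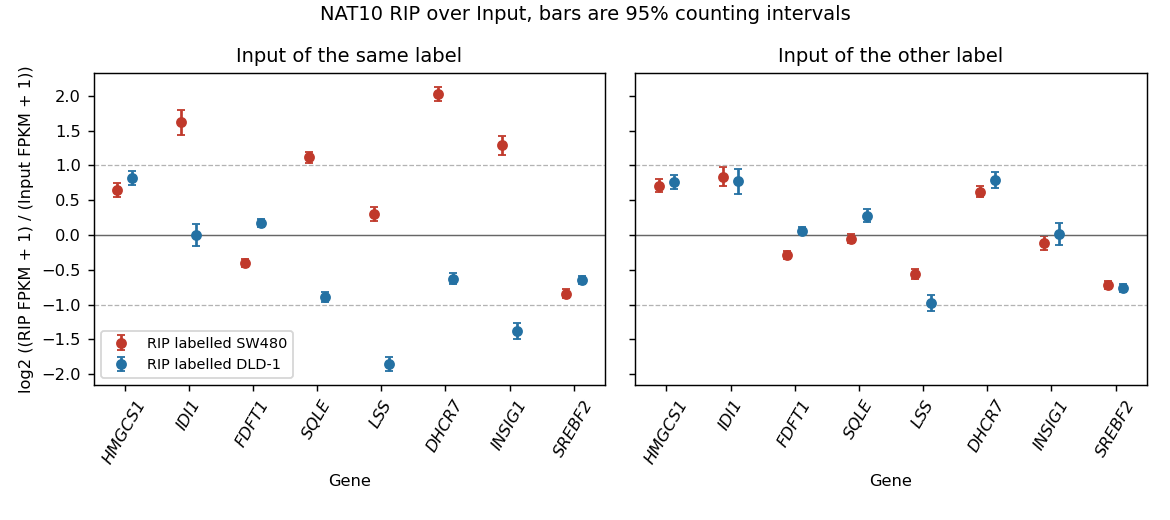
The log2 ratio of RIP to Input (FPKM + 1) for each gene, over the Input of the same label (left) and of the other label (right), with bars for the 95% counting interval and dashed lines at 2-fold. On the left DHCR7, IDI1, INSIG1 and SQLE stand above the upper line in SW480 and LSS and INSIG1 under the lower line in DLD-1, whereas on the right every point lies within the lines.

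NAT10 mRNA itself was at -0.03 in SW480 and -0.65 in DLD-1 over the Input of the same label, and at -0.14 and -0.54 with the Inputs exchanged. In bulk RNA a lower level per cell and fewer cells with the transcript cannot be told apart.

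The ac4C peak lists ask which of these transcripts carried the modification. The list of SW480 held 6 peaks on 5 of the 8 genes and that of DLD-1 14 peaks on 7. The 4 genes with a peak in both lists were FDFT1, IDI1, LSS and SREBF2. DHCR7 had a peak in SW480 alone, and HMGCS1, SQLE and INSIG1 in DLD-1 alone. Among 9793 protein-coding genes with an acRIP-table Input of at least 1 FPKM, 52.9% had a peak in SW480, 58.9% in DLD-1, 42.0% in both and 65.5% in the list called on pooled libraries. All 8 genes exceeded 10 FPKM in these Inputs, and at that level the shares of all genes were 72.7%, 79.0%, 65.3% and 81.4%, so that peaks on 5, 7, 4 and 7 of 8 genes are near what genes of such levels showed.

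In SW480 all 6 peaks lay in the 3′ UTR, where 53.0% of all peaks did. The strongest by the authors' fold over Input was on FDFT1 (chr8:11838651-11838950, 67.7-fold, p-value 1.3e-19 as listed), followed by DHCR7 (chr11:71434562-71435041, 37.5-fold, 3.2e-21). LSS had a peak at chr21:46189666-46189935 of 9.89-fold. SREBF2 had a peak at chr22:41906049-41906229 of 5.60-fold and a spliced one at chr22:41904954-41905599 of 3.60-fold, and IDI1 had one at chr10:1040237-1040386 of 3.04-fold. The median fold of these 6 peaks was 7.75, below the 19.5 of all peaks in this list.

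In DLD-1, 10 of the 14 peaks lay in the 3′ UTR (71.4%, against 41.5% of all peaks), 3 in coding sequence and 1 in the 5′ UTR. HMGCS1 had the most, with 5. Its strongest was in coding sequence (chr5:43298615-43298855, 27.5-fold, listed p-value 1.3e-15), next to a second coding peak at chr5:43297076-43298068 (15.7-fold), and 3 lay in the 3′ UTR between 43289545 and 43290383 with folds of 4.20 to 14.9. FDFT1 had a peak at chr8:11838651-11839160 (22.0-fold). IDI1 had a coding peak at chr10:1041194-1042567 (17.7-fold) and 3′ UTR peaks at chr10:1040237-1040446 (5.91-fold) and chr10:1040685-1040835 (2.93-fold).

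The other DLD-1 peaks were single or paired. LSS had a peak at chr21:46190264-46190444 (16.5-fold), INSIG1 at chr7:155308949-155309069 (11.4-fold) and SREBF2 at chr22:41906918-41907068 (9.05-fold), all in the 3′ UTR. SQLE had a peak in the 5′ UTR (chr8:124999274-124999424, 6.10-fold) and one in the 3′ UTR (chr8:125021865-125022134, 7.08-fold).

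FDFT1 and IDI1 had peaks that overlapped between the lists. The share of all genes with such an overlap is not given here, so it is unknown whether this is few or many. On FDFT1 the SW480 peak of 300 bases lay wholly within the DLD-1 peak, of which it covered 58.8%, and on IDI1 the SW480 peak of 150 bases covered 71.4% of the DLD-1 peak. The peaks of LSS and of SREBF2 were in the 3′ UTR in both lists but at different places. The pooled list held 14 peaks on 7 genes, all but INSIG1, and its DHCR7 peak spanned 210 bases at 12.5-fold.

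The lists also count sites of a pattern of 12 bases made of a C and 2 free bases, 4 times over. The DHCR7 peak held 5 sites, the LSS peak 3 and the spliced SREBF2 peak 3, so that 3 of the 6 SW480 peaks had a site, against 56.2% of all peaks. In DLD-1 the SREBF2 peak alone had a site, which is 7.1% of the 14 peaks, against 55.1% of all peaks. Peaks on 1 transcript are not independent, and 5 of these 14 lie on HMGCS1.

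**Figure D4:**
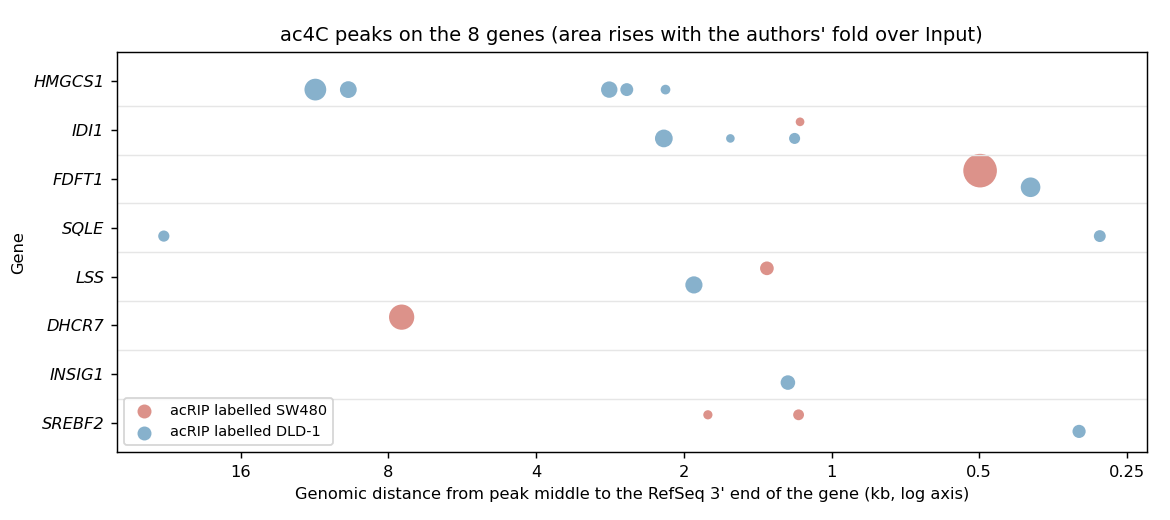
ac4C peaks on each gene, placed by the genomic distance in kb (log axis, 3′ end to the right) from the peak middle to the RefSeq end of the gene, with colour for the list and area rising with the authors' fold. FDFT1 and IDI1 have peaks of both colours whose regions share bases, DHCR7 has a peak in SW480 alone, and the 5 HMGCS1 peaks are all from DLD-1.

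The other genes of the pathway were taken from lists of synthesis enzymes, of SREBP control and uptake, and of efflux and esterification, 32 genes of which 30 passed the filter on Input. Over the Input of the same label 11 of the 30 were at least 2-fold above and 1 below in SW480 (15.6% and 16.0% of all genes), and 3 above and 4 below in DLD-1 (15.1% and 19.2% of all genes), with medians of 0.67 and -0.15. With the Inputs exchanged, 5 were above and 1 below in RIP labelled SW480 (9.24% and 11.7% of all genes), and 5 above and 0 below in RIP labelled DLD-1 (9.36% and 11.8%), with medians of 0.29 and 0.22. In what follows, ratios are given for the SW480 and then the DLD-1 label, first over the Input of the same label and then with the Inputs exchanged. MSMO1, the methyl sterol oxidase, was the one gene 2-fold above in both, at 2.26 and 1.66, and then at 1.78 and 2.15. NSDHL, which acts beside MSMO1 in removing the sterol methyl groups, was at 2.04 and 0.80, then 1.40 and 1.44. SC5D, a sterol desaturase, was at 0.82 and 1.48, then 1.46 and 0.84. MVD, the decarboxylase of the mevalonate branch, was at -0.09 and -0.20, then 0.02 and -0.31.

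Among control and uptake genes, STARD4, a carrier of sterols between membranes, was at 3.41 in SW480 and 0.35 in DLD-1, and at 1.87 and 1.89 with the Inputs exchanged. NPC2, which hands cholesterol out of lysosomes, was at 1.22 and 0.35, then 0.35 and 1.22. VLDLR, a lipoprotein receptor, was at 0.67 and 0.54, then 0.76 and 0.46. SREBF1, which encodes the SREBP of fatty acid synthesis, was at -0.65 and -0.48, then -0.71 and -0.42, the same sign as SREBF2. LRP8, a receptor of apolipoprotein E, also lay below Input, at -0.74 and -0.09, then -0.45 and -0.39. Of the efflux and esterification genes, the sterol acyltransferase SOAT1 was at 1.32 and 0.24, then 0.62 and 0.94, and the oxysterol receptor NR1H2 at -0.06 and -1.14, then -0.66 and -0.54.

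Between the Inputs 7 of the 30 genes were at least 2-fold higher under the DLD-1 label and 1 under the SW480 label (9.29% and 7.25% of all genes), with 6 and 1 in the acRIP table (9.60% and 9.52%). The median log2 differences, SW480 minus DLD-1, were -0.48 and -0.47. In the RIP libraries 5 were 2-fold higher under the SW480 label and 1 under the DLD-1 label (7.60% and 6.17% of all genes), with a median of 0.27. The signs of these medians are those of the 8 genes.

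Of these pathway genes, 29 were protein-coding with an acRIP-table Input of at least 1 FPKM, of which 14 had an ac4C peak in SW480, 19 in DLD-1 and 13 in both, where 52.9%, 58.9% and 42.0% of all such genes did. Strong peaks were on NPC2 (616-fold in SW480 and 59.8-fold in DLD-1) and on SREBF1 (235-fold and 253-fold). MBTPS1, the protease that first cuts SREBP, had peaks of 101-fold and 51.9-fold. PMVK and MVD, enzymes of the mevalonate branch, had peaks of 96.5-fold and 88.5-fold in SW480 and 43.3-fold and 46.4-fold in DLD-1. NR1H2 had peaks of 3.12-fold and 6.03-fold.

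Fatty acid synthesis genes under SREBP control are given for comparison. All 10 were lower in the Input labelled SW480 in both tables and higher in the RIP library labelled SW480, with medians of -0.66, -0.47 and 0.57. In the same order, 6389, 5908 and 6319 of all 12324 genes had these signs. The differences nearest to 0 among the 10 were -0.16, -0.10 and 0.30. Over the Input of the same label 5 were 2-fold above and 0 below in SW480 (15.6% and 16.0% of all genes), and 0 above and 4 below in DLD-1 (15.1% and 19.2%). With the Inputs exchanged, 1 was 2-fold above in each pairing (9.24% and 9.36% of all genes) and 0 below (11.7% and 11.8%). ACSL3, an acyl-CoA synthetase, was at 1.63 and 0.33, then 0.93 and 1.02. Of the genes with negative ratios under both labels, ACLY was at -0.15 and -0.61, then -0.31 and -0.45, FASN at -0.04 and -0.71, then -0.26 and -0.50, and ACACA at -0.01 and -1.02, then -0.48 and -0.55. The counting SEs of the SW480 ratios -0.04 and -0.01 were 0.02 and 0.03, so FASN and ACACA lay close to Input there. The strongest peaks in SW480 were on SCD (87.4-fold), ACLY (64.5-fold) and ACSL3 (45.8-fold), and in DLD-1 on ACSL3 (37.8-fold), FASN (18.5-fold) and ACACA (17.3-fold).

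The isoprenoid branch, which leaves the pathway before squalene, had medians of 0.11, 0.14 and -0.02 in the same 3 comparisons of labels. On the log2(FPKM + 1) scale 0 of its 10 genes differed 2-fold between the Inputs of either table or between the RIP libraries. COQ2, of ubiquinone synthesis, was nearest to it, at 0.97 and 0.81 in the Inputs, and in plain FPKM its DLD-1 to SW480 ratios were 0.412 and 0.390. Over the Input of the same label 3 genes in SW480 and 2 in DLD-1 were 2-fold above (15.6% and 15.1% of all genes), and 3 and 2 with the Inputs exchanged (9.24% and 9.36%). COQ2 was 2-fold above under both labels, at 1.12 and 2.24, then 2.09 and 1.27. GGPS1, which makes geranylgeranyl diphosphate, was at 1.27 and 0.80, then 1.22 and 0.84, and the geranylgeranyl transferase subunit PGGT1B at 0.69 and 1.06, then 1.04 and 0.71. PDSS1 was at -0.85 and -0.03, then -0.62 and -0.26. DHDDS was at -0.31 and -0.16, then -0.17 and -0.30, and FNTB at -0.12 and -0.22, then -0.28 and -0.05. Among the strongest peaks were those on PDSS1 (17.7-fold), GGPS1 (15.6-fold) and FNTA (6.04-fold) in SW480 and on GGPS1 (16.5-fold) and COQ2 (14.2-fold) in DLD-1.

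Outside these lists, the genes nearest to the mean profile of the 8 were sought over the 4 RIP and Input libraries, among 3872 protein-coding genes at 10 FPKM or more in all 4, by Euclidean distance of log2(FPKM + 1) centred on the mean of the gene. The mean profile was 0.35 in RIP labelled SW480, -0.38 in its Input, -0.26 in RIP labelled DLD-1 and 0.29 in its Input. CELF1 (distance 0.058), DPYSL2 (0.060), DPP7 (0.074), NUB1 (0.076) and UBE2M (0.086) were nearest. The 8 genes themselves lay farther from their mean, from 0.396 for SQLE to 1.105 for SREBF2, so that the mean describes none of them closely.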

How the data were processed

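The authors deposited FPKM values for RIP and Input in each line, and a second table with Input values that are read here as FPKM. Per the submitters' processing notes, cutadapt 2.5 and HISAT2 2.1.0 were used, and the counting tool and peak caller are not given in the sources used here. Strand use in counting is not given either. The 3 deposited columns of RIP to Input ratios, which are the authors' own comparison, were not used. The study speaks of an IgG control, whereas the table and labels name Input. The deposited peak lists give a p-value, scores for its logarithm and for the false discovery rate, the authors' fold ratio of acRIP over Input, and sites of a 12-base pattern. Peak coordinates are on GRCh38, and starts were moved by 1 base to count from 1.

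Here log2((RIP FPKM + 1) / (Input FPKM + 1)), which understates changes of low genes, was taken over the 12324 genes that reached 1 FPKM in both Inputs, and 2-fold was the limit for higher or lower. The 4 RIP-table columns fell on whole-number steps, so that whole reads could be solved for 23515 of 23515 genes above 0 in at least 2 columns (tolerance 0.001 reads). These reads are the smallest that give the values, and the steps were tested on simulated data. A count test was not run, because 1 library per group leaves no spread. The counting SEs cover counting error only, since PCR copies are not independent. Medians of protein-coding genes were shifted by 0.18 (SW480) and 0.07 (DLD-1). For RIP ratios over an acRIP-table Input, that Input was first scaled to the median of the RIP-table Input of its label. The median was taken over protein-coding genes above 0 in every Input column. Ratios, counts and medians over the acRIP-table Inputs rest on that scaling.

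Groups came from the sample titles. The genes and lists were chosen with earlier results of these data known. The text names all 8 genes, NAT10, and of each other list the genes 2-fold from Input in both labels, the 3 highest and 3 lowest by the smaller ratio of one sign, and the 3 strongest peaks per line, plus the 5 nearest profiles. Some genes that this rule names are not reported here, although counts and medians of their lists include them. Alternatives were the pseudocount, filter, centring, Input library and table, fold, peak threshold and overlap. Python 3.11.15, pandas 2.3.3 and numpy 2.4.6 were used.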

Additional observations from a re-analysis of the deposited data

Results flagged for a closer look

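In 5 of the 8 genes the RIP library lay above Input under one label and below it under the other, not counting IDI1, whose DLD-1 ratio rounds to 0.00. The difference of the log2 ratios, SW480 minus DLD-1 labels, was 2.66 for INSIG1, 2.66 for DHCR7, 2.15 for LSS, 2.01 for SQLE and -0.57 for FDFT1. Opposite signs were found in 43.6% of all genes, and a difference of at least 2-fold between the labels in 38.6%. Each RIP library also resembled the Input of the other label more than its own. With 1 library per group the difference was not tested. Their ratios with the Inputs exchanged stand in the report.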

How the results depend on the processing

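With 1 library per group nothing shows the spread between cultures, and the acRIP-table depth is unknown. No paired analysis was possible because each group holds 1 library and so no 2 groups share a pair of numbered replicates. A model that takes the lines as replicates was not run. The reread of motif sites with a 9-base pattern was not run, since no genome was used here. Except for the construction named in each setting, the cause of a change was not tested. Shares of all genes stand in the report for 2-fold counts over the Input of the other label, and for 2-fold counts between the labels. For other changed settings of a count, such as 1.5-fold, centring or stricter peaks, no share of all genes is given. Whether a count moved more there than that of all genes is therefore unknown.

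Of the 8 genes in SW480, the count above Input (4) became 0 over the Input of the other label and 1 over the other-label Input from the acRIP table, and the count below (0) became 1 after centring and 1 at 1.5-fold. Their median (0.89) became 0.71 after centring, -0.08 over the other Input and 0.11 over the other acRIP-table Input. In DLD-1 the count above (0) became 1 over the other acRIP-table Input and 1 at 1.5-fold, and the count below (2) became 0 over either Input of the other label and 5 at 1.5-fold. The median (-0.64) became 0.17 over the other Input, -0.29 over the acRIP-table Input and 0.39 over that of the other label. Signs turned over the other Input for SQLE (-0.05), INSIG1 (-0.11) and LSS (-0.56) in SW480 and SQLE (0.28), INSIG1 (0.02) and DHCR7 (0.79) in DLD-1, and over the other acRIP-table Input for FDFT1 (0.18), INSIG1 (-0.13) and LSS (-0.15) in SW480 and SQLE (0.54) and DHCR7 (1.05) in DLD-1. IDI1 in DLD-1 went from 0.00 to 0.77 and 0.59. Between lines, the counts 0 and 3 became 3 and 0 in the RIP libraries, and 3 became 5 at 1.5-fold. The median (-0.82) became -0.61 in the acRIP table and 0.84 in RIP, where all 8 signs turned: SQLE (0.84), IDI1 (0.85), INSIG1 (1.27), LSS (1.28), DHCR7 (1.25), HMGCS1 (-0.11), FDFT1 (-0.46) and SREBF2 (-0.08).

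For the other pathway genes in SW480, 11 above became 5 over the other Input and 17 at 1.5-fold, and 1 below became 0 at an Input of at least 5 FPKM, 0 over the other acRIP-table Input and 3 at 1.5-fold. In DLD-1, 3 above became 5 over the other Input, 5 over the acRIP-table Input, 8 over that of the other label and 5 at 1.5-fold, and 4 below became 7 after centring, 0 over the other Input, 1 over the other acRIP-table Input and 9 at 1.5-fold. Between lines, 1 and 7 became 5 and 1 in RIP and 2 and 14 at 1.5-fold. With p-values under the list median, genes with a peak fell to 3 of the 8 in each line and to 11 of the others in DLD-1. Shared peak pairs fell from 2 to 1 on the 8 genes and from 17 to 11 on the others. At 50% overlap the others shared 7 pairs in place of 17. A background at 10 FPKM, chosen after seeing the data, raised the share of genes with a peak to 72.7% and 79.0%. Pseudocount 0.1 moved LSS in DLD-1 to -1.95. Another 77 recomputed values stayed within 1.5 times the reported count or, for medians, within the 95% counting interval of the least precise gene.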
